A study of Rattus norvegicus with 30 samples.

Results

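The endothelial markers are a list of 10 genes whose transcripts are used to recognise the cells that line blood vessels, namely Pecam1, Cdh5, Kdr, Flt1, Tek, Tie1, Vwf, Emcn, Esam and Cldn5. Members were taken by name, and no measured level entered the rule, but the list was chosen with earlier results of these data known. Of the 10 names, 8 were among the 13124 genes of the count table, and Pecam1 and Cldn5 were not analysed here. All 8 passed the filter on low counts, which kept 12558 genes and removed 566. Their counts per tendon ran from 297 for Kdr to 8489 for Tie1, so none was near the detection floor of 3 counts.

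RNA sequencing was performed on 30 plantaris tendons of 3-month-old male Sprague Dawley rats. The study asked whether GSK2894631A, an inhibitor of hematopoietic prostaglandin D synthase given by oral gavage, changes the recovery of a tendon after it has been cut and sutured. In all rats with surgery both plantaris tendons were cut through their full thickness and repaired at once with a Bunnell suture while the Achilles tendon was left intact, and the right plantaris, taken just distal to the myotendinous junction, gave the RNA. The groups were control rats with neither surgery nor compound (n = 3), and repaired tendons at 7 days (7D) with 0 mg/kg (n = 5), 2 mg/kg (n = 4) or 6 mg/kg (n = 3), and at 21 days (21D) with 0, 2 or 6 mg/kg (n = 5 each). The 0 mg/kg rats received the vehicle by gavage, and whether control rats were gavaged is not given in the sources used here. Every tendon is a separate rat, and all comparisons with control tendons share the same 3 control tendons.

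Endothelial cells sense vascular endothelial growth factors (VEGF) through the receptors Kdr and Flt1, which drive and temper the growth of new vessels. Angiopoietins act through the receptor Tek, with Tie1 as its partner, and set whether a vessel is stable or open to remodelling. Adult tendon carries few vessels, and a healing tendon fills with vascularised scar tissue. In whole tissue RNA, fewer endothelial cells and less RNA per cell cannot be told apart.

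Promoter windows, from 250 bases before to 50 bases after the annotated start, were held by RefSeq (assembly GRCr8) for 4 of the 8 genes and are shown because many endothelial genes are read by ETS transcription factors, whose binding motif has GGAA at its core. Capitals mark GGAA or its complement TTCC. The sequences are given 5′ to 3′ on the strand of the gene, and no window was held for Cdh5, Tek, Vwf and Esam. The windows are Kdr at chr14:32571813-32572112 (plus strand), Flt1 at chr12:12333180-12333479 (plus strand), Tie1 at chr5:137304932-137305231 (minus strand) and Emcn at chr2:228564289-228564588 (plus strand), all on GRCr8 and not on rn6, the build of the counts.
Kdr: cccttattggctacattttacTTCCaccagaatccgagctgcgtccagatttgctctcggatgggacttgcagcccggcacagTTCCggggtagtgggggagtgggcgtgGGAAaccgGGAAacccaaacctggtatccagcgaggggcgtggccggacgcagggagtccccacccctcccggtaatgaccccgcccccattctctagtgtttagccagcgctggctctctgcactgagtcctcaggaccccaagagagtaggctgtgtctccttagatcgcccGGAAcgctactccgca
Flt1: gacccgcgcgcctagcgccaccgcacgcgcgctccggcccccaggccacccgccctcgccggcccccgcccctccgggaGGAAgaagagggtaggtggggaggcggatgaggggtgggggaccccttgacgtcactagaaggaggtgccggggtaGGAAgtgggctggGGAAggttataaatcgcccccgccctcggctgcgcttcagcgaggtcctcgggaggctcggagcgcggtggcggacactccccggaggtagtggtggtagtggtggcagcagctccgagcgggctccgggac
Tie1: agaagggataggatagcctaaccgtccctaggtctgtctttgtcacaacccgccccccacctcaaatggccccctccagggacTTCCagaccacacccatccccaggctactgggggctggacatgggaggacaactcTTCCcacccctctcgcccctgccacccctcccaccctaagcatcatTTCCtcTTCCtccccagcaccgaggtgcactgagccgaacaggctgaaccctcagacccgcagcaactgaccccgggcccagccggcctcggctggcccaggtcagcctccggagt
Emcn: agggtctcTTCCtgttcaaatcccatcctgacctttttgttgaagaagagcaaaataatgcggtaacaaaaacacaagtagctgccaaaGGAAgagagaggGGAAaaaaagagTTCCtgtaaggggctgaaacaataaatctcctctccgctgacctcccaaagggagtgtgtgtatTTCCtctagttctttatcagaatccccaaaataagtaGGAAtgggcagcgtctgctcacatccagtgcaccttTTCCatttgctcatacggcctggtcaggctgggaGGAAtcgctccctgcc
GGAA on either strand was found 8 times in the Emcn window, a number that 3.9% of the 33469 rat windows of this length reach or pass. The Kdr window held 5 matches (reached by 29.2% of windows), the Tie1 window 4 (46.8%) and the Flt1 window 3 (67%). The median window held 3, and 95.8% of all windows held at least 1. The longer AGGAAG, which contains GGAA and so overlaps it, was found 2 times for Emcn, 2 times for Flt1, 1 time for Tie1 and 0 times for Kdr on either strand, and 34.5% of all windows held it. Emcn thus stood toward the high end for the core letters, and the other 3 windows did not. These matches are a description of letters, and no binding was measured.

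Some facts of the whole series bear on the values below. Total counts per tendon ran from 12405741 to 49909374. Levels are given as CPM, a count scaled to a common library size, after TMM scaling, which aligns the bulk of genes between tendons. Transcripts of 27 skeletal muscle genes made up 20.2% to 28% of the counts of control tendons, 0.181% to 1.33% at 7D 0 mg/kg and 0.0094% to 0.0124% in the other 7D groups, and 0.0697% to 10% at 21D. The tendon fibroblast gene Tnmd was present in every group, at 147 to 364 CPM in control tendons and 46.2 to 135 CPM at 7D 0 mg/kg, and of 8 tendon fibroblast genes 5 were lower and 0 higher at 7D 0 mg/kg, beside 35.6% and 35.8% of all genes. Without control replicate 2 these were 2 lower and 2 higher, with Tnmd at -0.99 (edgeR adjusted p = 0.0706). The part of muscle content in the marker values was examined by 1 fit with the summed muscle level as a covariate, whose results stand beside the counts they change. Every repaired tendon had a lower muscle share than every control tendon, so against control tendons this fit cannot separate muscle level from group.

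Control replicate 2 had the lowest level of 8 of the 8 markers among the control tendons. Control replicate 4 had the highest level of 6 markers and control replicate 3 of the other 2 (Tek and Vwf). The summed level of the 8 markers was 223, 583 and 810 CPM in the lowest, median and highest control tendon. The control group was therefore spread over a wider range than most repaired groups, which had summed levels of 672 to 1020 CPM at 7D 0 mg/kg, 547 to 848 at 7D 2 mg/kg, 660 to 864 at 7D 6 mg/kg, 479 to 943 at 21D 0 mg/kg, 323 to 528 at 21D 2 mg/kg and 410 to 750 at 21D 6 mg/kg. Control replicate 2 also had the highest sums of the control tendons for 10 leukocyte markers (331 CPM, others 226 and 79.2), for the platelet and megakaryocyte genes (215 CPM, others 67.6 and 28.2) and for the tendon fibroblast genes (7861 CPM, others 2029 and 1908). The part of these differences in the marker values was not tested. Counts of markers against control tendons are also given without control replicate 2 and without control replicate 4 where that changes a call.

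**Figure D1:**
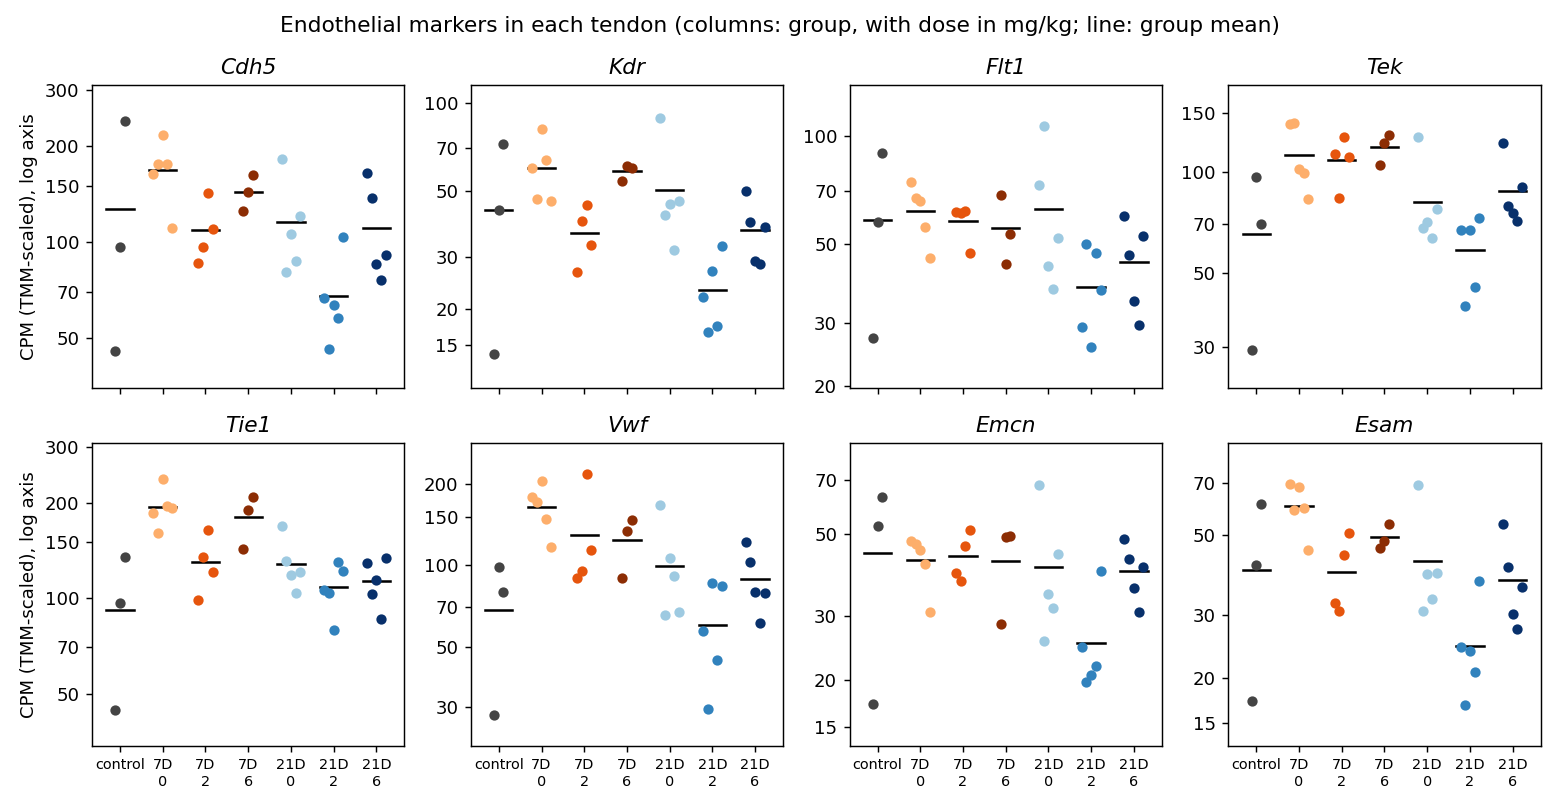
Level of each of the 8 endothelial markers in every tendon, in TMM-scaled CPM on a log axis, with 1 panel per gene and 1 point per tendon. Horizontal lines are group means. The spread of the 3 control tendons covers all repaired tendons for Cdh5 (45.4 to 240 CPM) and most repaired tendons for Kdr, Flt1, Emcn and Esam.

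Among the VEGF receptors, Kdr (ENSRNOG00000046829, chromosome 14), the main signalling receptor for VEGF-A, was at 14, 43.1 and 72.3 CPM in control replicates 2, 3 and 4. In the 5 tendons at 7D 0 mg/kg it was at 60.2, 47.0, 81.4, 64.1 and 46.3 CPM. At 7D 2 mg/kg its level was 26.6, 39.8, 45.1 and 32.9 CPM. Every 7D 2 mg/kg tendon was below every 7D 0 mg/kg tendon, while both groups lay mostly within the control range. At 7D 6 mg/kg the levels were 54.2, 61.2 and 60.1 CPM, back among those without compound. At 21 days, Kdr was at 88.4, 41.6, 45.4, 31.6 and 46.3 CPM with 0 mg/kg. With 2 mg/kg it was at 21.9, 16.6, 26.8, 17.4 and 32.6 CPM, and with 6 mg/kg at 50.2, 39.5, 29.0, 28.3 and 37.7 CPM. The 21D 2 mg/kg tendons held the lowest mean of any group (23.1 ± 6.70 CPM, SD, n = 5), overlapping the 21D 0 mg/kg tendons in 1 sample of that group (31.6 CPM, below the highest value of 32.6 CPM). The order of mean levels was 7D 0 mg/kg (59.8), 7D 6 mg/kg (58.5), 21D 0 mg/kg (50.6), control (43.1), 21D 6 mg/kg (36.9), 7D 2 mg/kg (36.1) and 21D 2 mg/kg (23.1).

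Flt1 (ENSRNOG00000000940, chromosome 12), a VEGF receptor that also acts as a decoy, was at 27.3, 57.5 and 89.6 CPM in the control tendons. At 7D 0 mg/kg it was at 74.6, 67.0, 65.9, 55.6 and 45.5 CPM, and at 21D 0 mg/kg at 72.9, 107, 43.4, 37.4 and 51.8 CPM. Flt1 kept overlapping ranges in all of these groups and passed the test in none of the comparisons between groups. Its group means lay between 37.8 CPM (21D 2 mg/kg) and 62.5 CPM (21D 0 mg/kg), the latter raised by replicate 2.

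Of the Tie receptors, Tie1 (ENSRNOG00000020173, chromosome 5) was at 44.6, 96.7 and 135 CPM in the control tendons. At 7D 0 mg/kg it was at 185, 160, 237, 195 and 193 CPM, and at 7D 6 mg/kg at 143, 189 and 209 CPM. Both groups lay wholly above the control tendons. At 7D 2 mg/kg Tie1 was at 98.8, 135, 164 and 121 CPM, overlapping the control range. At 21D it was at 169, 131, 118, 104 and 121 CPM with 0 mg/kg, and ran from 79.4 to 130 CPM with 2 mg/kg and from 86.0 to 134 CPM with 6 mg/kg. Its order was 7D 0 mg/kg (194), 7D 6 mg/kg (180), 7D 2 mg/kg (130), 21D 0 mg/kg (129), 21D 6 mg/kg (113), 21D 2 mg/kg (108) and control (92.2), so that the control mean was the lowest of the 7.

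Tek (ENSRNOG00000008587, chromosome 5), the angiopoietin receptor also known as Tie2, was at 29.4, 96.7 and 69.6 CPM in the control tendons. At 7D it was at 139, 140, 102, 99.3 and 83.0 CPM with 0 mg/kg, at 113, 83.5, 127 and 111 CPM with 2 mg/kg, and at 105, 122 and 129 CPM with 6 mg/kg. The 7D 6 mg/kg tendons lay wholly above the control tendons, and the lowest tendon of each of the other 7D groups was below control replicate 3. At 21D it ran from 63.6 to 127 CPM with 0 mg/kg, from 39.7 to 72.6 CPM with 2 mg/kg and from 71.2 to 122 CPM with 6 mg/kg. In order, the Tek means were 119 (7D 6 mg/kg), 113 (7D 0 mg/kg), 109 (7D 2 mg/kg), 87.5 (21D 6 mg/kg), 81.2 (21D 0 mg/kg), 65.2 (control) and 58.3 CPM (21D 2 mg/kg).

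Vwf (ENSRNOG00000019689, chromosome 4), the clotting glycoprotein that endothelial cells store and release, was at 28.1, 98.3 and 79.4 CPM in the control tendons. At 7D it was at 178, 171, 204, 148 and 117 CPM with 0 mg/kg, at 89.9, 95.5, 217 and 114 CPM with 2 mg/kg, and at 89.9, 134 and 147 CPM with 6 mg/kg. All 5 tendons without compound were above all 3 control tendons, which was not so at either dose of the compound. By 21D the levels were 65.8 to 167 CPM with 0 mg/kg, 29.5 to 85.9 CPM with 2 mg/kg and 61.2 to 122 CPM with 6 mg/kg. Its means ran from 164 CPM at 7D 0 mg/kg through 129 (7D 2 mg/kg), 123 (7D 6 mg/kg), 99.4 (21D 0 mg/kg), 89.1 (21D 6 mg/kg) and 68.6 (control) to 60.2 CPM at 21D 2 mg/kg.

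Of the junction proteins, Cdh5 (ENSRNOG00000013324, chromosome 19), the cadherin that joins endothelial cells, had the widest control spread, at 45.4, 96.8 and 240 CPM, a 5.27-fold range. At 7D 0 mg/kg it was at 164, 176, 217, 176 and 111 CPM, a 1.95-fold range that lay inside that of the controls. At 21D it was at 183, 80.4, 106, 87.1 and 121 CPM with 0 mg/kg and at 66.7, 46.3, 63.3, 57.9 and 104 CPM with 2 mg/kg. Its means were 169 CPM at 7D 0 mg/kg, 144 at 7D 6 mg/kg, 127 in control tendons, 115 at 21D 0 mg/kg, 111 at 21D 6 mg/kg, 109 at 7D 2 mg/kg and 67.6 at 21D 2 mg/kg.

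Esam (ENSRNOG00000033217, chromosome 8), an adhesion molecule of endothelial tight junctions, was at 17.2, 41.3 and 61.0 CPM in the control tendons and at 69.4, 58.8, 68.2, 59.4 and 45.4 CPM at 7D 0 mg/kg. At 21D 2 mg/kg it was at 24.4, 16.8, 23.8, 20.8 and 37.1 CPM. Emcn (ENSRNOG00000022910, chromosome 2), a sialomucin of capillary and venous endothelium, was at 17.3, 52.4 and 62.9 CPM in the control tendons and at 47.9, 47.0, 45.1, 41.4 and 30.6 CPM at 7D 0 mg/kg. With 2 mg/kg at 21D it was at 24.6, 19.8, 20.7, 21.9 and 39.7 CPM. For both genes the 21D 2 mg/kg tendons lay below control replicates 3 and 4, with replicate 5 the highest of its group and Esam in replicate 2 below every control tendon. Emcn was the flattest of the markers in the other groups, with means of 39.6 to 44.2 CPM in all but the 21D 2 mg/kg tendons (25.3 CPM), and the Esam means ran from 60.2 CPM at 7D 0 mg/kg to 24.6 CPM at 21D 2 mg/kg.

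For each marker the groups were put in order of their mean and neighbours were compared. Of the 48 pairs of neighbouring groups, 0 passed edgeR's quasi-likelihood test at an adjusted p of 0.05 (lowest value 0.175), and 3 were under 0.05 before adjustment. The 3 were 21D 2 mg/kg against the group above it, for Cdh5, Emcn and Esam. Of all 168 pairs of groups over the 8 markers, 25 passed. The share of all genes over the same pairs is not given here, so these counts cannot be read as many or few. In the pairs with control tendons, 64.1% to 71.4% of all genes were called. No neighbouring groups in these orders were thus told apart beyond the spread between tendons.

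At 7D without compound, 3 of the 8 markers were higher than in control tendons and 0 were lower. Tie1 rose 2.11-fold (log2 fold change 1.07 ± 0.25 SE, 95% confidence interval 0.56 to 1.59, edgeR adjusted p = 0.000481). Vwf rose 2.38-fold (1.25 ± 0.397, 0.44 to 2.07, edgeR adjusted p = 0.00686) and Tek 1.73-fold (0.79 ± 0.292, 0.19 to 1.39, edgeR adjusted p = 0.0185). Of all genes tested, 71.4% were called in this comparison, 35.8% as higher and 35.6% as lower, so 3 of 8 markers was close to the share among all genes. The VEGF receptors, the junction proteins and Emcn gave no call, and their log2 differences were 0.41 for Cdh5 (-0.35 to 1.17), 0.48 for Kdr (-0.26 to 1.21), 0.09 for Flt1 (-0.58 to 0.76), -0.06 for Emcn (-0.71 to 0.59) and 0.60 for Esam (-0.05 to 1.25). These intervals admit changes of either sign for all 5 genes. The ranges of Tie1 and Vwf did not overlap those of the control tendons, which held in the same direction for 31.2% of all genes, whereas those of Tek did. The median log2 fold change was 0.54 over the 8 markers and 0.048 over all genes. Without control replicate 2, the count fell to 1, with Tie1 at 0.67 (edgeR adjusted p = 0.00979), Tek at 0.37 (0.238) and Vwf at 0.81 (0.0805). Without control replicate 4, the tendon with the highest Cdh5, it was 5, the additional calls being Cdh5 (1.19), Kdr (1) and Esam (0.98), while Tek, at 0.78, was not called. With the muscle level as a covariate the count was 5, with Tek at 1.18, Tie1 at 0.97 and Vwf at 1.74. The muscle share was 20.2% or more in control tendons and at most 1.33% here, so this fit cannot separate muscle level from group. Scaled by library size alone the count was 7, in a setting where the median of all genes was itself 0.64 on the log2 scale. Relative to that median Tie1, Vwf and Tek were at 1.07, 1.21 and 0.73.

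With the compound at 7D, 2 markers were higher than in control tendons at each dose and 0 were lower. At 2 mg/kg these were Tek (log2 fold change 0.73 ± 0.302 SE, 0.11 to 1.36, edgeR adjusted p = 0.0334) and Vwf (0.91 ± 0.405, 0.08 to 1.75, edgeR adjusted p = 0.048), where 35.8% of all genes were called as higher and 34% as lower. At 6 mg/kg they were Tek (0.86 ± 0.32, 0.21 to 1.52, edgeR adjusted p = 0.0196) and Tie1 (0.97 ± 0.271, 0.41 to 1.53, edgeR adjusted p = 0.00283), where 34.1% were called as higher and 33.8% as lower, and the ranges of both lay above those of the control tendons, as for 34.6% of all genes. Tek was called against the control tendons at all 3 doses. Tie1 at 2 mg/kg was at 0.49 (-0.03 to 1.02, edgeR adjusted p = 0.0846) and Vwf at 6 mg/kg at 0.85 (-0.03 to 1.73, edgeR adjusted p = 0.081), so that neither interval excludes no change. The count at 2 mg/kg was fragile. It was 0 without control replicate 2, without 7D 2 mg/kg replicate 4 or without replicate 5, 1 without control replicate 4, where Tie1 was called at 0.82 and Tek and Vwf were not, and 0 with the muscle level as a covariate. Without 7D 2 mg/kg replicate 2, Tie1 was called (0.61) and Tek was not. At 6 mg/kg it was 1 without control replicate 2 (Tie1 at 0.58, edgeR adjusted p = 0.0345), 1 without 7D 6 mg/kg replicate 5 (Tek at 0.80 not called), 4 without control replicate 4 (Cdh5 at 0.98 and Kdr at 0.99 added), 6 scaled by library size alone, and 0 with the covariate, and Vwf was called without control replicate 3 (1.22). Muscle transcripts were 20.2% or more of the counts of control tendons and at most 0.0124% at these doses, so in this covariate fit muscle level and group are nearly the same contrast.

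**Figure D2:**
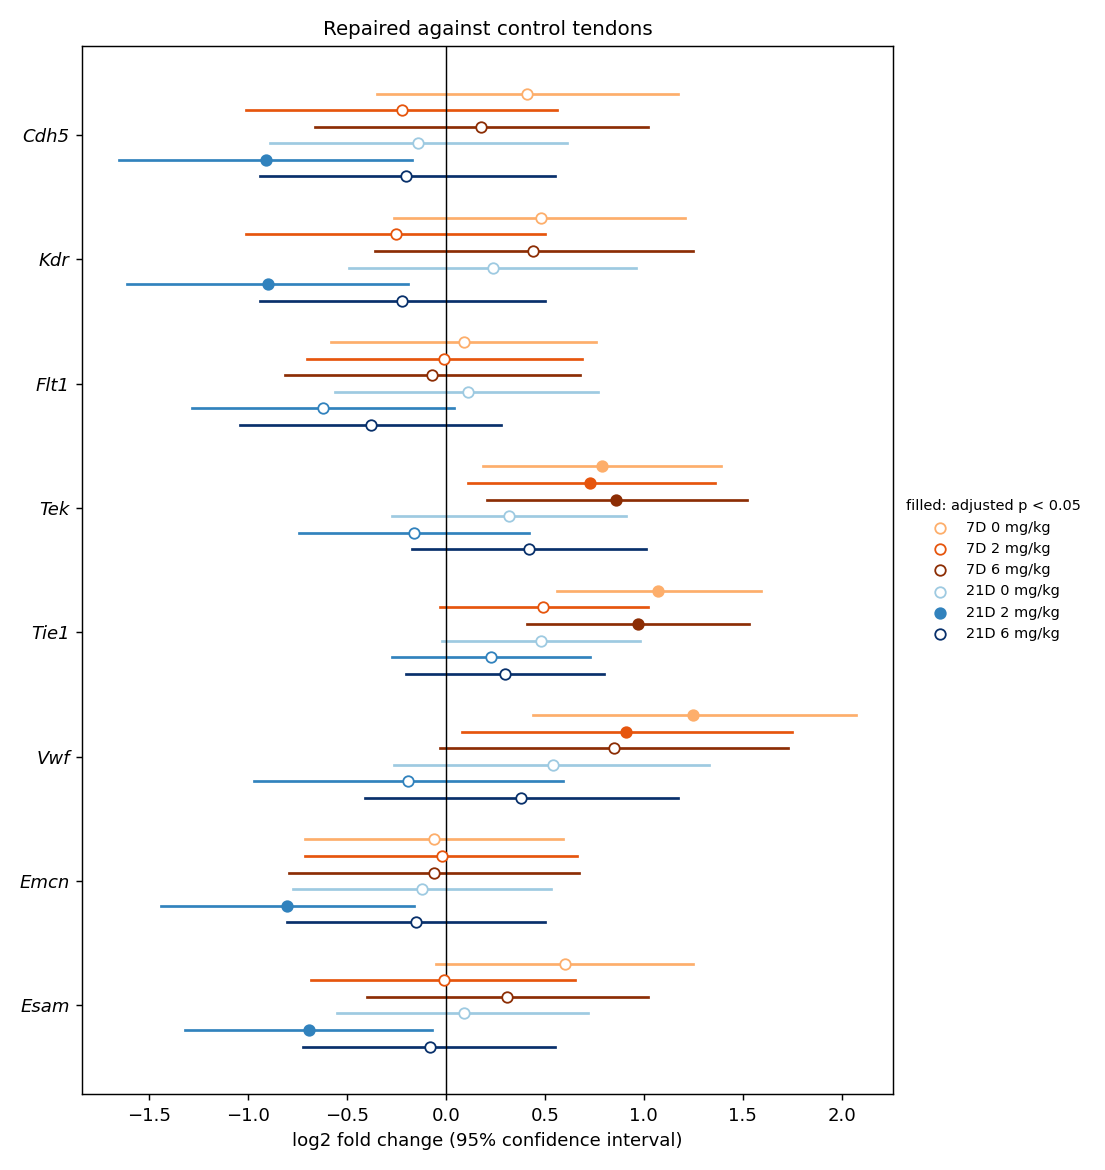
Log2 fold change of the 8 endothelial markers against the 3 control tendons in each of the 6 repaired groups, with bars for the 95% confidence interval and filled points for an adjusted p under 0.05. Tie1, Tek and Vwf lie highest at 7D, reaching 1.25 for Vwf with 0 mg/kg, and Cdh5, Kdr, Emcn and Esam lie below 0 at 21D 2 mg/kg.

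At 21D without compound, 0 of the 8 markers passed the test against the control tendons by edgeR, 0 had an unadjusted p under 0.05, and 65.9% of all genes were called (68.6% at an unadjusted p under 0.05). The log2 differences ran from -0.14 for Cdh5 (-0.89 to 0.61) to 0.54 for Vwf (-0.26 to 1.33), with Tie1 at 0.48 (-0.02 to 0.98) and Tek at 0.32 (-0.27 to 0.91). Most genes tested thus still differed by 21 days from control tendons, which also held more muscle transcripts. The markers, with intervals about 1 log2 unit or more wide, gave no call. The paper, which also required a 1.5-fold change, counted far fewer transcripts in this comparison, and the source of that gap was not tested. The other tools and tendons mattered here, since limma-trend called 1 marker, leaving out control replicate 4 called Tie1 (0.81), leaving out control replicate 3 called Tek (0.75), and scaling by library size alone called 6 (the median of all genes was then 0.59).

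At 21D with 2 mg/kg, 4 markers were lower than in control tendons and 0 were higher. These were Cdh5 (log2 fold change -0.91 ± 0.358 SE, -1.65 to -0.17, edgeR adjusted p = 0.0267), Kdr (-0.90 ± 0.345, -1.61 to -0.19, edgeR adjusted p = 0.0234), Emcn (-0.80 ± 0.312, -1.44 to -0.16, edgeR adjusted p = 0.0259) and Esam (-0.69 ± 0.304, -1.32 to -0.07, edgeR adjusted p = 0.0454). Of all genes, 35.3% were called as lower and 33.8% as higher in this comparison, and the ranges of the 4 markers overlapped those of the control tendons. Kdr was at 0.536 of its control level, Cdh5 at 0.532, Emcn at 0.574 and Esam at 0.618. Tie1 (0.23) and Tek (-0.16), the receptors that were higher at 7D, gave no call, nor did Flt1 (-0.62, -1.28 to 0.04) or Vwf (-0.19, -0.97 to 0.59). The median was -0.66 over the 8 markers and 0.014 over all genes. The count was not stable. It was 0 without control replicate 4, where Cdh5 was at -0.14 (edgeR adjusted p = 0.742), Kdr at -0.38, Emcn at -0.53 and Esam at -0.32. It was 1 without control replicate 3, 0 without 21D 2 mg/kg replicate 2 or replicate 4, 2 without replicate 3, and 5 without control replicate 2, where Flt1 was called too (-1.04). The call of Esam was also lost without 21D 2 mg/kg replicate 1. The count was 0 with the muscle covariate, by limma-trend and scaled by library size alone, where the 4 genes were at -0.83 (Cdh5), -0.85 (Kdr), -0.78 (Emcn) and -0.66 (Esam) relative to the median of all genes. At 21D with 6 mg/kg, 0 markers passed by edgeR, DESeq2 or limma-trend, and 0 had an unadjusted p under 0.05 (64.1% of all genes passed by edgeR and 67.5% unadjusted), with log2 differences from -0.38 for Flt1 (-1.04 to 0.28) to 0.42 for Tek (-0.17 to 1.01). In that comparison Flt1 was called as lower without control replicate 2 (-0.79), and Tek (0.84) and Tie1 (0.63) as higher without control replicates 3 and 4 in turn.

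Between 7D and 21D without compound, 0 markers passed edgeR's or limma's test and 1 passed that of DESeq2, while 2 had an unadjusted p under 0.05 and 5.35% of all genes passed (23.7% unadjusted). These were Tie1 (-0.59, -1.02 to -0.17, edgeR adjusted p = 0.0855) and Vwf (-0.72, -1.40 to -0.04, edgeR adjusted p = 0.182). With 2 mg/kg, Tek fell to 0.537 of its 7D level (-0.90 ± 0.259 SE, -1.43 to -0.36, edgeR adjusted p = 0.0228) and Vwf to 0.466 (-1.10 ± 0.347, -1.81 to -0.39, edgeR adjusted p = 0.0357), against 5.98% of all genes called as lower. For both, every 21D 2 mg/kg tendon was below every 7D 2 mg/kg tendon, as for 5.93% of all genes. Both calls were lost without 7D 2 mg/kg replicate 4 or 5 or 21D 2 mg/kg replicate 2 or 4, and that of Vwf also without 21D 2 mg/kg replicate 1, with Tek at -0.89 to -0.79 and Vwf at -1.15 to -0.73 in those fits. Without 21D 2 mg/kg replicate 5, Emcn (-1) and Esam (-0.88) were called as well. With 6 mg/kg, 0 markers passed by edgeR or limma-trend and 1 by DESeq2, and 1 had an unadjusted p under 0.05 (13.1% of all genes passed by edgeR). However, Tie1 (-0.67, -1.16 to -0.18, edgeR adjusted p = 0.0605) and Kdr (-0.66, edgeR adjusted p = 0.219) did not overlap between the times, as for 10.6% of all genes in that direction. Tie1 was called at -0.74 without 21D 6 mg/kg replicate 5.

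When the 3 doses were averaged, a contrast chosen after seeing the data, 6 of the 8 markers were lower at 21D than at 7D and 0 were higher, where 35.7% of all genes were called and 16.8% were called as lower. Vwf fell to 0.589 of its 7D level (log2 fold change -0.76, -1.18 to -0.35, edgeR adjusted p = 0.00453), Tek to 0.658 (-0.60, -0.91 to -0.29, edgeR adjusted p = 0.00297) and Tie1 to 0.703 (-0.51, -0.77 to -0.25, edgeR adjusted p = 0.00304). Esam fell to 0.693 (-0.53, -0.87 to -0.19, edgeR adjusted p = 0.0137), Cdh5 to 0.689 (-0.54, -0.94 to -0.14, edgeR adjusted p = 0.0329) and Kdr to 0.699 (-0.52, -0.90 to -0.13, edgeR adjusted p = 0.0324). The decline thus took in both Tie receptors, both junction proteins, Vwf and one VEGF receptor. Flt1 (-0.30, -0.66 to 0.05) and Emcn (-0.31, -0.66 to 0.04) gave no call. The median was -0.52 over the 8 markers and 0.005 over all genes. The calls of Tie1, Tek, Vwf and Esam held on leaving out any of the 27 repaired tendons in turn, whereas those of Cdh5 and Kdr were lost in 8 and 10 of these 27 fits, with values of -0.54 to -0.48 and -0.51 to -0.47. With the muscle level as a covariate the count was 3. Over the same contrast 27 of 27 muscle genes were higher, with a median of 6.81, and 6 of 10 leukocyte markers were lower, with a median of -1.15.

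No marker passed the test across the 3 doses, at 7D (2.05% of all genes passed), at 21D (0%) or in the dose by time interaction (0.39%), by edgeR's quasi-likelihood F-test. At an unadjusted p under 0.05, 1 marker passed at 7D (Tie1, edgeR adjusted p = 0.377), 5 at 21D (Cdh5, Kdr, Flt1, Emcn and Esam) and 0 in the interaction, beside 12.5%, 10.9% and 7.84% of all genes. Kdr had the smallest of the 21D values (edgeR adjusted p = 0.292). For the interaction the unadjusted p of the 8 markers ran from 0.164 to 0.821, so a difference between times in the response to dose was not detectable.

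Single doses were set against 0 mg/kg at each time. At 7D with 2 mg/kg the log2 differences ran from -0.73 for Kdr (-1.40 to -0.06, edgeR adjusted p = 0.272) to 0.03 for Emcn (-0.56 to 0.63), and 0 markers passed beside 2.36% of all genes. At an unadjusted p under 0.05 there were 3, Kdr, Tie1 (-0.58, edgeR adjusted p = 0.186) and Esam (-0.61, edgeR adjusted p = 0.297), beside 15.5% of all genes. Kdr was also the marker whose 7D 2 mg/kg tendons were all below the 7D 0 mg/kg tendons, as were 3.88% of all genes. At 21D with 2 mg/kg all 8 differences were below 0, from -1.14 for Kdr (-1.77 to -0.51, edgeR adjusted p = 0.388) to -0.25 for Tie1, with 0 of the 8 and 0% of all genes called, while 52.5% of all genes had a difference below 0. At an unadjusted p under 0.05 there were 6 markers, beside 4.87% of all genes as lower. Besides Kdr these were Esam (-0.78, edgeR adjusted p = 0.431), Flt1 (-0.72, 0.478), Emcn (-0.68, 0.491), Cdh5 (-0.77, 0.505) and Vwf (-0.72, 0.549). With 6 mg/kg the differences were smaller, from -0.41 for Vwf to 0.08 for Tek at 7D and from -0.49 for Flt1 to 0.11 for Tek at 21D, with 0 called by edgeR and 0 at an unadjusted p under 0.05 (beside 0.39% and 0% of all genes called).

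Averaged over both times, again a contrast chosen after seeing the data, Kdr was lower with 2 mg/kg than without compound, at 0.524 of its level (log2 fold change -0.93 ± 0.224 SE, -1.39 to -0.47, edgeR adjusted p = 0.0215). This was 1 of the 8 markers, beside 2.69% of all genes, 1.82% as lower. Esam was next (-0.70, -1.10 to -0.29, edgeR adjusted p = 0.0526), followed by Cdh5 (-0.70, edgeR adjusted p = 0.104), and the median of the 8 was -0.47 against -0.003 over all genes. The other 5 were at -0.27 (Tek), -0.32 (Emcn), -0.41 (Flt1), -0.41 (Tie1) and -0.53 (Vwf). The call of Kdr was lost without 7D 2 mg/kg replicate 2 (-0.87, edgeR adjusted p = 0.0616), without 7D 2 mg/kg replicate 5 (-0.91, 0.0506) and without 21D 0 mg/kg replicate 1 (-0.78, 0.0533), the tendon with the highest Kdr of all. Esam was called without 7D 0 mg/kg replicate 5, 21D 0 mg/kg replicate 2 or 4 or 21D 2 mg/kg replicate 5, at -0.79 to -0.73. With the muscle level as a covariate Kdr was at -0.75 (edgeR adjusted p = 0.111), and over the same contrast 22 of 27 muscle genes were lower, with a median of -3.89. At 6 mg/kg, 0 markers passed by edgeR, DESeq2 or limma-trend, 0 had an unadjusted p under 0.05, and 0% of all genes passed, with differences from -0.32 for Flt1 (-0.76 to 0.12) to 0.09 for Tek.

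**Figure D3:**
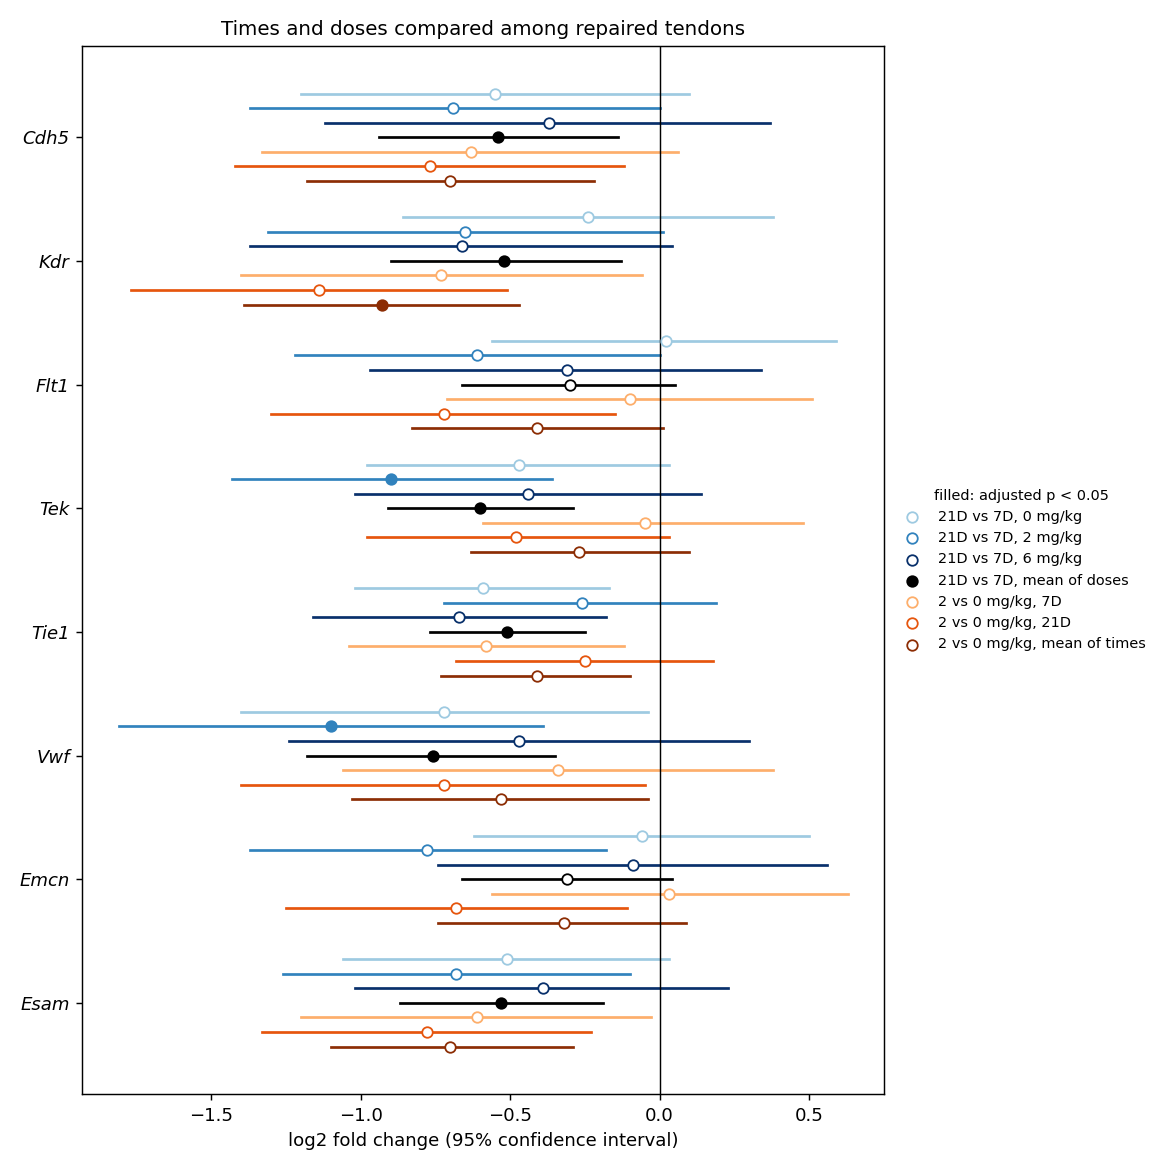
Log2 fold changes of the 8 endothelial markers with 95% confidence intervals, for 21D against 7D at each dose and averaged over doses, and for 2 mg/kg against 0 mg/kg at each time and averaged over times. Filled points have an adjusted p under 0.05. This holds for 6 markers in the averaged time contrast, for Tek (-0.90) and Vwf (-1.10) at 21D against 7D with 2 mg/kg, and for Kdr (-0.93) in the averaged dose contrast.

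Within groups the markers varied by tendon. The SD of log2 level within groups (23 residual degrees of freedom) was 0.349 for Tie1, 0.411 for Tek, 0.443 for Esam, 0.463 for Emcn, 0.466 for Flt1, 0.513 for Kdr, 0.522 for Cdh5 and 0.552 for Vwf. For 18 of the 28 pairs of markers the difference between the pair varied less than either marker. The tightest pairs were Emcn with Esam (SD of the log2 difference 0.182), Cdh5 with Esam (0.189) and Cdh5 with Kdr (0.221), so that these pairs varied together between the tendons of a group. Flt1 moved least with the rest, with 0.365 to 0.651 in its pairs. A tendon also tended to stand high or low for many markers at once. Replicate 1 was the highest for 7 of 8 markers at 21D 0 mg/kg and for 7 at 21D 6 mg/kg, 21D 6 mg/kg replicate 4 was the lowest for 8, and 7D 0 mg/kg replicate 5 and 7D 6 mg/kg replicate 1 were the lowest for 7 each. These are values of one library at a time, and what sets such tendons apart was not tested.

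The likeness of other genes to the markers was measured as the root mean square difference of log2 level over the 30 tendons, after centring each gene. Against the mean profile of the 8 markers the nearest genes of all others were Hoxb7 (0.163), F11r (0.168), Sigirr (0.182), Rasip1 (0.184) and S1pr1 (0.188), while the median gene was at 0.635. Among the markers themselves Esam was nearest to the mean profile (0.163), followed by Cdh5 (0.232), Kdr (0.274), Tek (0.284), Emcn (0.286), Tie1 (0.329), Vwf (0.376) and Flt1 (0.458). By this measure Esam was the nearest member and Flt1 the farthest, with each marker's own values part of the mean profile. The genes nearest to single markers were Esam (0.17) and Tmem88 (0.214) for Cdh5, Cdh5 (0.237) and Esam (0.243) for Kdr, Scarf1 (0.255) and Rasa4 (0.277) for Flt1, and Hoxb7 (0.19) and F11r (0.245) for Tek. For Tie1 they were Prkch (0.189) and Nectin2 (0.228), for Vwf Clec14a (0.312) and Itgb4 (0.323), for Emcn Gimap6 (0.229) and Podxl (0.231), and for Esam Cdh5 (0.17) and Tmem88 (0.18). All points of these profiles share the libraries and their depth.

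Other endothelial genes were measured alongside, from lists chosen with earlier results of these data known. Of 29 further endothelial genes tested, 10 were higher and 1 lower at 7D 0 mg/kg than in control tendons (beside 35.8% and 35.6% of all genes), with a median log2 fold change of 0.46 beside 0.048 over all genes. They included Nostrin (1.71, edgeR adjusted p = 3.42e-07), a regulator of nitric oxide synthase trafficking, and Cd93 (1.52, edgeR adjusted p = 4.85e-05), a surface lectin of growing vessels, which went from 42.6 to 80.1 CPM in control tendons to 107 to 190 CPM. Procr, the protein C receptor, was the gene that was lower (-0.77, edgeR adjusted p = 0.046). At 21D the list gave 6 higher and 2 lower without compound (beside 32.2% and 33.7% of all genes), and 3 higher and 8 lower with 2 mg/kg (beside 33.8% and 35.3%). The latter were 2 and 15 without control replicate 2, and 2 and 4 without control replicate 4. Averaged over doses, 10 were lower and 0 higher at 21D than at 7D (16.8% of all genes were lower), and averaged over times, 3 were lower and 0 higher at 2 mg/kg, beside 1.82% of all genes as lower (Sox18 at -0.91, Ptprb at -0.76 and Nos3 at -0.98). The count at 7D 0 mg/kg was 7 higher and 0 lower without control replicate 2, where Procr was at -0.46 (edgeR adjusted p = 0.282), 12 and 1 without control replicate 4, where Procr was at -1.29, and 23 and 0 scaled by library size alone.

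Of the ligands and co-receptors of the same pathway, 6 of 10 tested were higher and 3 lower at 7D 0 mg/kg, beside 35.8% and 35.6% of all genes. Vegfa, the main ligand of Kdr and Flt1, fell by 2.23 on the log2 scale (edgeR adjusted p = 1.75e-07), from 391 to 754 CPM in control tendons to 87.8 to 138 CPM, and was at 124 to 198 CPM at 21D 0 mg/kg. Angpt1, the stabilising ligand of Tek, fell by 1.76 (edgeR adjusted p = 3.9e-05), from 29.7 to 50.5 CPM to 10.1 to 13.7 CPM. Vegfb was also lower (-1.15). Muscle transcripts fell between the same groups. Control replicate 4, with the largest muscle share of the control tendons (28%), had a summed level of 1088 CPM for this list. Control replicates 2 and 3 had 680 and 658 CPM. The part of muscle content in these values was not tested. Vegfd, a ligand best known from lymphatic growth, rose by 3.50 (edgeR adjusted p = 7.26e-09), from 1.72 to 3.96 CPM to 29.1 to 45.9 CPM, and the co-receptor Nrp2 rose by 1.87 (edgeR adjusted p = 3.78e-07), from 27.3 to 32.7 CPM to 88 to 148 CPM. Angpt2, which opposes Angpt1 at Tek, was higher too (0.79), as were Nrp1 (1.08) and Vegfc (0.89). The angiopoietin Angpt4 was also higher, from 3.51 to 17.4 CPM in control tendons to 31 to 54.5 CPM at 7D 0 mg/kg. The ranges of Vegfa, Angpt1, Vegfd and Nrp2 at 7D 0 mg/kg did not overlap those of the control tendons, as for 31.2% of all genes in the higher and 30.7% in the lower direction. The higher Tek and Tie1 were thus measured together with less Angpt1 but more Angpt2 and Angpt4. Kdr and Flt1 gave no call beside less Vegfa and Vegfb and more Vegfc and Vegfd. Without control replicate 2 the list gave 4 higher and 3 lower at 7D 0 mg/kg, with Angpt2 at 0.45 (edgeR adjusted p = 0.296) and Nrp1 at 0.77 (0.0662) no longer called, and without control replicate 4 Angpt2 was at 0.84 (0.0767). At 21D 0 mg/kg the list gave 5 higher and 3 lower, beside 32.2% and 33.7% of all genes.

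Of 6 venous and activated endothelial genes, 4 were higher and 0 lower at 7D 0 mg/kg, beside 35.8% and 35.6% of all genes in this and the next lists. These were the leukocyte adhesion molecules Vcam1 (2.43, edgeR adjusted p = 6.93e-06; 4.44 to 15.8 CPM in control tendons and 40.3 to 68.9 CPM at 7D), Icam1 (2.17) and Selp (2.53), and the venous receptor Ephb4 (1, edgeR adjusted p = 2.29e-05). Vcam1 and Icam1 are also made by fibroblasts and leukocytes. Of 6 arterial and Notch genes, 3 were higher and 0 lower, among them Notch1 (0.71, edgeR adjusted p = 0.00225) and Efnb2 (0.63, edgeR adjusted p = 0.0111), while the Notch ligand Dll4 was at -0.74 (edgeR adjusted p = 0.144). Of 5 sprouting genes, Cxcr4 (1.77, edgeR adjusted p = 0.00247) and Aplnr (1.3, edgeR adjusted p = 0.0156) were higher. Leukocyte markers were higher in this comparison too, and the part of leukocytes in Cxcr4 and the other genes of these lists was not tested. Esm1, a proteoglycan of endothelial tip cells, was lower (-4.98, edgeR adjusted p = 8.02e-08), at 28.3 to 130 CPM in control tendons and 1.61 to 3.54 CPM at 7D 0 mg/kg. Without control replicate 2, Efnb2 was at 0.33 (edgeR adjusted p = 0.189) and Aplnr at 0.73 (0.113), both no longer called, and Dll4 was called as lower (-1.28, 0.00929), so that the arterial list gave 1 higher and 1 lower and the sprouting list 1 and 1. Without control replicate 4, the arterial list gave 4 and 0 and the sprouting list 3 and 1, with Cxcr4 at 2.67 and Aplnr at 2.18. Between 7D and 21D at 0 mg/kg, Selp was lower at 21D (-1.35, edgeR adjusted p = 0.041) and Esm1 higher (1.84, edgeR adjusted p = 0.0352).

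**Figure D4:**
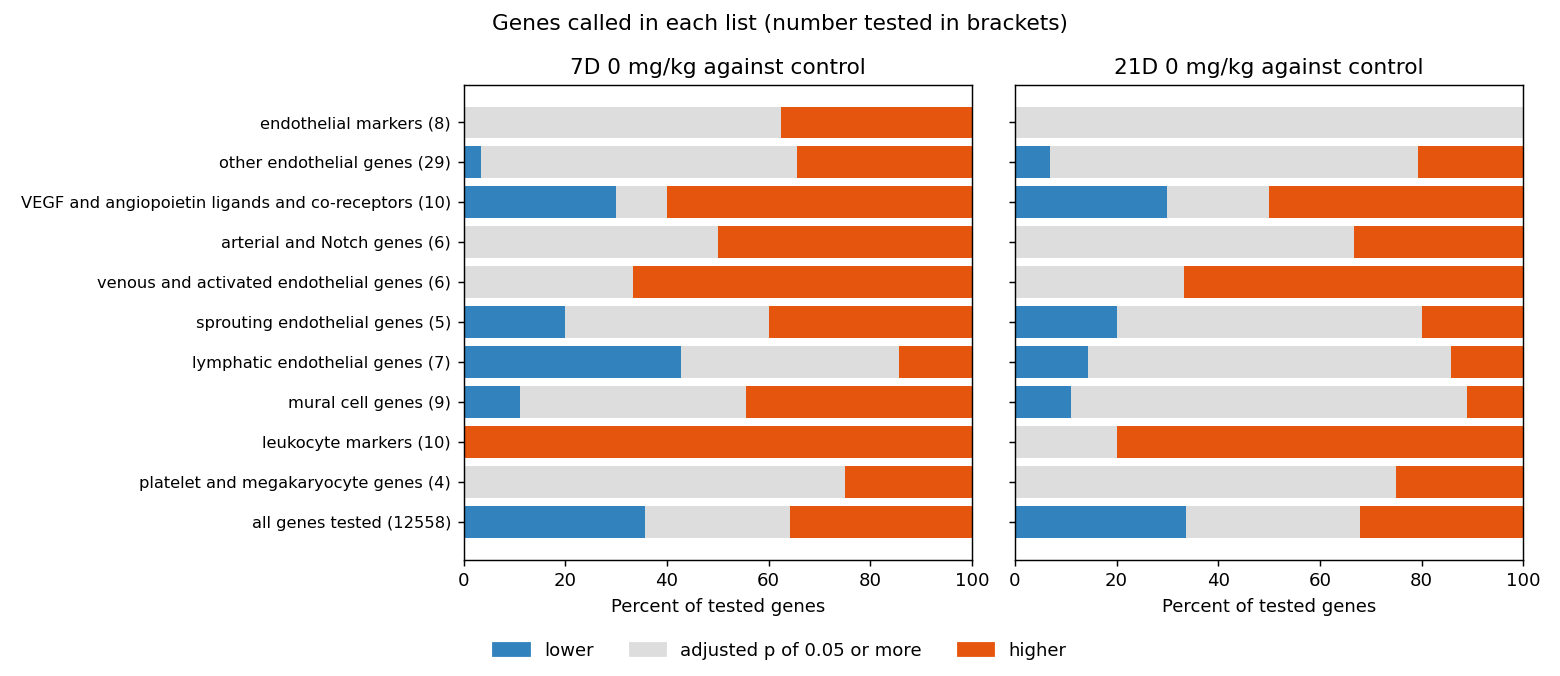
Percent of the tested genes of each list that were higher, lower or not called against control tendons at 7D 0 mg/kg and at 21D 0 mg/kg, with all 12558 genes as the last bar. At 7D, 3 of 8 endothelial markers and 10 of 29 other endothelial genes were higher, near the 35.8% of all genes.

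Leukocytes, muscle and other cells contribute to whole tendon RNA, and their markers moved between the same groups. At 7D 0 mg/kg, 10 of 10 leukocyte markers were higher than in control tendons (median 3.28), and their summed level was 79.2 to 331 CPM in control tendons, 595 to 1240 at 7D 0 mg/kg, 292 to 1790 at 21D 0 mg/kg and 360 to 1110 at 21D 2 mg/kg. Of 4 platelet and megakaryocyte genes, a possible other source of Vwf, 1 was higher at 7D 0 mg/kg (Pf4, 1.68, edgeR adjusted p = 0.0194). Leaving out control replicate 2, 2 were higher, Pf4 at 2.73 (edgeR adjusted p = 0.00159) and Itga2b at 2.87 (0.0467), and without control replicate 4, 0 were called, with Pf4 at 1.15 (0.121). The 27 muscle genes were lower in 27 of 27 at 7D 0 mg/kg (median -5.76). Tek is also made by some macrophages, and Flt1 by monocytes. The part of these cells in the levels of the endothelial markers and of the other lists was not tested, apart from the muscle covariate for the markers. Against control tendons that covariate cannot separate muscle level from group.

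**Figure D5:**
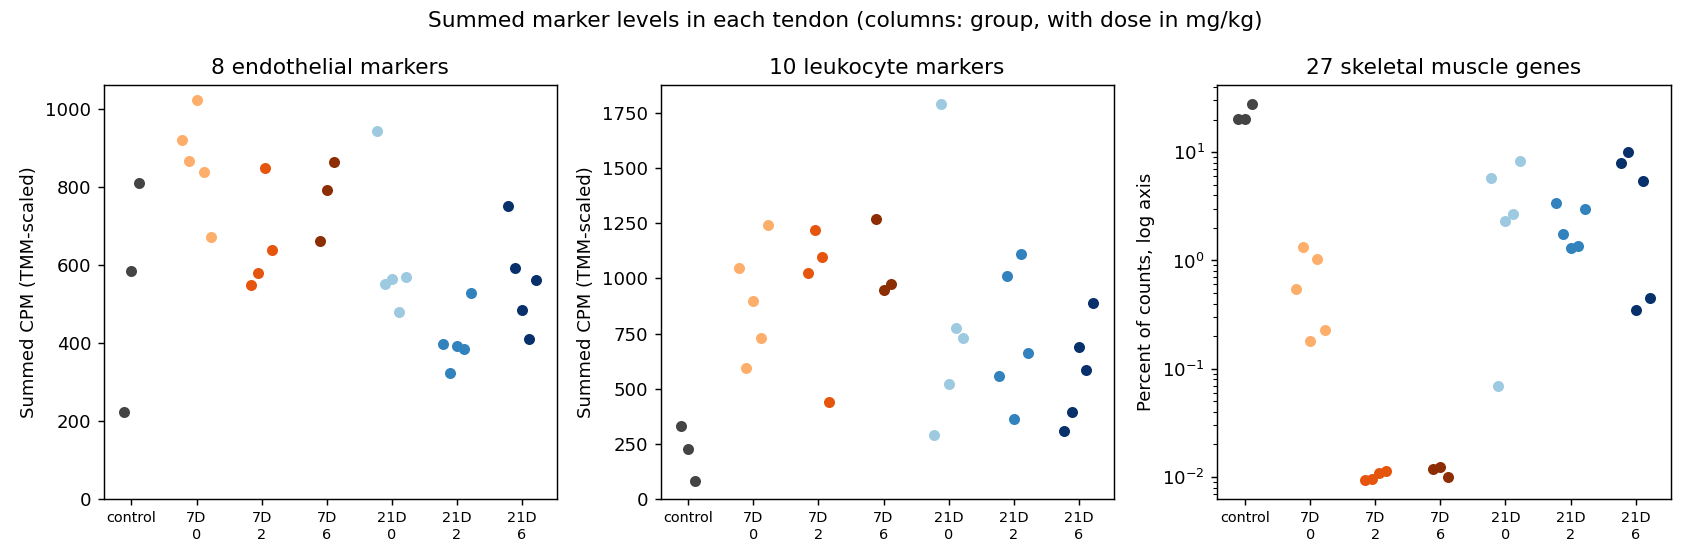
Summed level of the 8 endothelial markers (CPM), summed level of 10 leukocyte markers (CPM) and percent of counts from 27 skeletal muscle genes, per tendon in each group, on linear axes for the sums and a log axis for the percent. The muscle share drops from 20.2% or more in control tendons to at most 1.33% at 7D, the leukocyte sum goes from at most 331 CPM to at least 437 CPM at 7D, and the endothelial sum stays between 223 and 1020 CPM throughout.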

How the data were processed

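The deposited count table held exon-level read counts per gene, made by the authors with fastp trimming, STAR alignment to rn6 and Ensembl release 95 annotation. The submitters' processing notes name FastQC, STAR and edgeR, with versions not given in the sources used here. The authors removed 4 libraries on read quality. By their methods 4 tendons would remain at 7D 6 mg/kg, but grouping here uses the 3 that carry that label. The other deposited table held the authors' own comparisons (log2 fold change, average log2 CPM, p-value and FDR) and was not used. The deposited gene annotation columns (chromosome, exonic width) were read as other values.

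The 10 markers and all gene lists were chosen with earlier results of these data known. The filter retained 12558 genes whose group mean reached 3 CPM in any of the 7 groups. Counts were TMM-scaled and fitted in 1 edgeR 4.0.16 quasi-likelihood model of 7 group means over all 30 tendons (R 4.3.3), with Benjamini-Hochberg adjustment over all tested genes and a threshold of 0.05. Every adjusted p is from this test, or from a refit of it where a tendon left out or the muscle covariate is named. Log2 levels for the likeness and spread measures used a prior count of 2. The text names all markers, the 5 genes nearest to the markers' mean profile and the 2 nearest to each marker. It also draws on a selection of up to 2 genes per list and direction with the smallest adjusted p. That selection was made at 7D 0 mg/kg against control and at 21D against 7D with 0 mg/kg. Not every selected gene is described, and Cd34, Ramp2, Plvap and Adgrf5 are among those left out. Other genes named with values (Vegfb, Vegfc, Nrp1, Angpt2, Icam1, Selp, Dll4, Sox18, Ptprb, Nos3, Itga2b, Ccl21 and Tnmd) were chosen after their values were seen.

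Alternatives were DESeq2 1.42.0 (with a local dispersion fit), limma 3.58.1 (limma-trend), DESeq2 size factors, library size alone, other filters, a replicate block, the summed muscle level as a covariate, the muscle genes left out, the compared groups alone, and each tendon left out in turn. The contrasts averaged over doses or times, and the repeats of the lists, were added after seeing the data. On simulated counts for 12558 genes with 200 changed at 7D 0 mg/kg against control, 174 (87%) were called, and 3.33% of 180 calls were unchanged genes. These values belong to the simulated counts only. In the measured counts 71.4% of all genes were called in this comparison. The share of changed genes missed there, or of unchanged genes called, was not tested. No pair of tendons was alike within sampling noise. Total counts were 12405741 to 49909374 per tendon, so that 3 counts correspond to 0.0601 to 0.242 CPM, which covers counting error only. Positions on rn6 and sequences on GRCr8 were not mixed, and chromosomes are as the count table gives them.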

Additional observations from a re-analysis of the deposited data

Results flagged for a closer look

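In groups of 4 or 5 tendons, 1 tendon stood apart from the rest of its group (Dixon's test) in 5 of the 40 combinations of marker and group, where chance flags about 1 in 20 groups. Replicate 1 at 21D 0 mg/kg stood high for Kdr (88.4 CPM, next 46.3), Tek (127, next 77.3) and Esam (69.1, next 39.2). At 21D 2 mg/kg, replicate 5 stood high for Emcn (39.7, next 24.6). At 7D 2 mg/kg, replicate 5 stood low for Flt1 (47, next 60.9). Markers of 1 tendon share its library, so the 3 values of replicate 1 at 21D 0 mg/kg are 1 event. Its part in the lower Kdr at 2 mg/kg is given by the fit without it (-0.78, adjusted p = 0.0533).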

How the results depend on the processing

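With 3 control tendons that spread widely, several calls against control tendons are lost or gained without control replicate 2 or 4. Over the single-gene values, 801 kept direction and side of the threshold under settings other than leaving out a tendon, 38 gained a call, 36 lost one and 61 changed sign, of which 18 were with library size alone, which shifts the median of all genes against control tendons as given below. On leaving out a tendon these were 945, 21, 62 and 60. The cause of these changes was not tested. The tests of doses and of their interaction with time kept 0 calls under each alternative run for them.

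Counts of higher markers were, for 7D 0 mg/kg, 7D 2 mg/kg, 7D 6 mg/kg, 21D 0 mg/kg, 21D 2 mg/kg and 21D 6 mg/kg, 7, 3, 6, 6, 1 and 3 with library size alone, where the median of all genes was 0.64, 0.61, 0.63, 0.59, 0.54 and 0.51 and 75.6%, 75.3%, 75.4%, 77.9%, 74.1% and 75.9% of the called genes were higher, against 50.1%, 51.3%, 50.2%, 48.9%, 48.9% and 48% after TMM scaling. With library size alone the lower count at 21D 2 mg/kg was 0, and the counts for 21D against 7D at 6 mg/kg and for 2 mg/kg against 0 mg/kg averaged were 1 and 2. For 21D against 7D the share of higher calls went from 53.9% to 42.7% at 0 mg/kg, 65.2% to 50.9% at 6 mg/kg and 52.9% to 41.1% averaged. With the muscle covariate the higher counts were 5, 0 and 0 at 7D 0, 2 and 6 mg/kg, the lower count at 21D 2 mg/kg 0, and the counts for 21D against 7D 4 at 2 mg/kg and 3 averaged, and 0 for 2 mg/kg against 0 mg/kg averaged. With the compared groups alone, they were 0 higher at 7D 2 mg/kg and at 7D 6 mg/kg, 0 lower at 21D 2 mg/kg and 1 for 21D against 7D at 6 mg/kg. DESeq2's test gave 1 and 1 for 21D against 7D at 0 and 6 mg/kg and 3 for 2 mg/kg against 0 mg/kg averaged. By limma-trend 1 marker was higher at 21D 0 mg/kg and 0 lower at 21D 2 mg/kg. DESeq2's size factors, or leaving out the muscle genes, gave 1 at 7D 2 mg/kg, a filter of 10 CPM gave 2 for 2 mg/kg against 0 mg/kg averaged, and a 1.5-fold minimum gave 2 for 21D against 7D averaged.

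Some log2 values that gave no call in the report changed sign. With the muscle covariate they were Flt1 -0.25 and Emcn 0.56 at 7D 0 mg/kg, Cdh5 1.24, Kdr 0.50, Emcn 1.23 and Esam 1.13 at 7D 2 mg/kg, Emcn 1.17 at 7D 6 mg/kg, Cdh5 0.32, Flt1 -0.16 and Emcn 0.25 at 21D 0 mg/kg, Tek 0.09 and Vwf 0.11 at 21D 2 mg/kg, Cdh5 0.22, Emcn 0.23 and Esam 0.25 at 21D 6 mg/kg, Flt1 0.17 for 21D against 7D at 6 mg/kg, Flt1 0.04 for 21D against 7D averaged over doses, and Cdh5 0.19, Emcn 0.29 and Esam 0.03 for 6 mg/kg against 0 mg/kg averaged over times. With library size alone they were Emcn 0.57 at 7D 0 mg/kg, Cdh5 0.43, Kdr 0.37, Flt1 0.60, Emcn 0.57 and Esam 0.59 at 7D 2 mg/kg, Flt1 0.57 and Emcn 0.56 at 7D 6 mg/kg, Cdh5 0.52 and Emcn 0.48 at 21D 0 mg/kg, Tek 0.35 and Vwf 0.34 at 21D 2 mg/kg, Cdh5 0.39, Kdr 0.34, Flt1 0.17, Emcn 0.38 and Esam 0.46 at 21D 6 mg/kg, and Flt1 -0.02 for 21D against 7D at 0 mg/kg. By limma-trend they were Emcn 0.12 at 7D 0 mg/kg, Cdh5 0.07, Kdr 0.01, Flt1 0.14, Emcn 0.16 and Esam 0.14 at 7D 2 mg/kg, Flt1 0.06 and Emcn 0.09 at 7D 6 mg/kg, Cdh5 0.12 at 21D 0 mg/kg, Cdh5 0.06, Kdr 0.03, Emcn 0.02 and Esam 0.05 at 21D 6 mg/kg, and Flt1 -0.07 for 21D against 7D at 0 mg/kg. With no filter they were Flt1 0.01 and Esam 0.01 at 7D 2 mg/kg. With a filter of 10 CPM they were Flt1 0.03, Emcn 0.02 and Esam 0.03 at 7D 2 mg/kg.

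Without 1 tendon, the higher counts were 1 to 5 at 7D 0 mg/kg, 0 to 2 at 7D 2 mg/kg, 1 to 4 at 7D 6 mg/kg, 0 to 1 at 21D 0 mg/kg and 0 to 1 at 21D 6 mg/kg, and the lower counts 0 to 5 at 21D 2 mg/kg and 0 to 1 at 21D 6 mg/kg. For 21D against 7D they were 0 to 4 at 2 mg/kg, 0 to 1 at 6 mg/kg and 4 to 6 averaged, and for 2 mg/kg against 0 mg/kg averaged 0 to 2. The ranges of log2 values that crossed 0 were Cdh5 -0.06 to 1.19, Kdr -0.02 to 1, Flt1 -0.32 to 0.48 and Emcn -0.51 to 0.22 at 7D 0 mg/kg, Cdh5 -0.69 to 0.56, Kdr -0.74 to 0.28, Flt1 -0.41 to 0.39, Emcn -0.47 to 0.26 and Esam -0.44 to 0.37 at 7D 2 mg/kg, Cdh5 -0.28 to 0.98, Kdr -0.03 to 0.99, Flt1 -0.46 to 0.34, Emcn -0.50 to 0.23 and Esam -0.11 to 0.71 at 7D 6 mg/kg, Cdh5 -0.60 to 0.65, Kdr -0.25 to 0.77, Flt1 -0.30 to 0.50, Tek -0.09 to 0.75, Emcn -0.56 to 0.17 and Esam -0.34 to 0.48 at 21D 0 mg/kg, Tek -0.59 to 0.28, Tie1 -0.18 to 0.55 and Vwf -0.64 to 0.20 at 21D 2 mg/kg, Cdh5 -0.66 to 0.60, Kdr -0.71 to 0.32, Flt1 -0.79 to 0.02, Tie1 -0.10 to 0.63, Vwf -0.06 to 0.75, Emcn -0.60 to 0.14 and Esam -0.51 to 0.31 at 21D 6 mg/kg, Flt1 -0.26 to 0.15 and Emcn -0.33 to 0.06 for 21D against 7D at 0 mg/kg, Emcn -0.31 to 0.04 for 21D against 7D at 6 mg/kg, and Emcn -0.09 to 0.11 for 6 mg/kg against 0 mg/kg averaged over times.

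No pairing of tendons by replicate number was seen. The deviations of same-numbered tendons had a median correlation of 0.00685 (-0.701 to 0.681), beside 0.00878 for others. Of the 30 tendons, 6 correlated best with a tendon of their own number. The labels do not say what the numbers stand for, and these values cannot exclude a pairing. With the replicate number as a block the higher count at 7D 6 mg/kg was 1, and the log2 values that changed sign were Flt1 -0.01 and Esam -0.06 at 21D 0 mg/kg, Flt1 -0.02 for 21D against 7D at 0 mg/kg, and Emcn 0.04 for 21D against 7D at 6 mg/kg. No other count moved with the block.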

Other observations

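Of 9 mural cell genes, which mark the pericytes and smooth muscle around vessels, 4 were higher and 1 lower at 7D 0 mg/kg than in control tendons (beside 35.8% and 35.6% of all genes), and 1 was higher and 4 lower at 21D 2 mg/kg (beside 33.8% and 35.3%). Without control replicate 4 the latter were 1 and 1. The receptor gene Pdgfrb was higher at 7D 0 mg/kg (log2 fold change 1.65, edgeR adjusted p = 3.78e-07), from 55 to 78.3 CPM in control tendons to 160 to 243 CPM. Which cells its transcripts came from was not tested. The contractile gene Acta2, which wound fibroblasts also make, was higher too (1.5, edgeR adjusted p = 0.000881). The potassium channel subunit gene Abcc9, also used by muscle, was lower (-2.16, edgeR adjusted p = 4.75e-05), from 246 to 345 CPM to 39.8 to 83.1 CPM. At 0 mg/kg, Cspg4 was higher (0.89) and Acta2 (-1.21) and Notch3 (-1.07) lower at 21D than at 7D. Averaged over times, 4 of the 9 were lower and 0 higher with 2 mg/kg than without compound, beside 1.82% of all genes as lower. Without control replicate 2, 3 were higher and 1 lower at 7D 0 mg/kg, and without control replicate 4, 5 and 2.

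Of 7 lymphatic endothelial genes, 1 was higher and 3 lower at 7D 0 mg/kg, beside 35.8% and 35.6% of all genes. The transcription factor Prox1 (-1.27, edgeR adjusted p = 0.012) and the hyaluronan receptor Lyve1 (-1.17, edgeR adjusted p = 0.00681) were lower, while Pdpn, which fibroblasts also make, was higher (1.47, edgeR adjusted p = 1.48e-06). Averaged over doses, 0 of the 7 differed between 21D and 7D by edgeR, beside 35.7% of all genes. The count at 7D 0 mg/kg without control replicate 2 was also 1 higher and 3 lower, but Lyve1 was at -0.64 (edgeR adjusted p = 0.143) and Ccl21 was called (-0.90). Scaled by library size alone the count was 1 higher and 0 lower, where 78.8% of all genes were called and 75.6% of those calls were higher.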
